A study of Mus musculus with 24 samples.

Results

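The 10 genes described here, Nfe2l2, Gclc, Gclm, Gsr, Txnrd1, Srxn1, Nqo1, Hmox1, Cat and Sod1, encode the transcription factor NRF2, enzymes that it is known to induce, and the core enzymes that remove hydrogen peroxide and superoxide. They were chosen by gene symbol as antioxidant defence genes, with the glutathione transferases left out, by a rule that uses no measured value but was made with earlier results of these data known. All 10 matched a gene identifier among the 41388 genes counted in mouse liver, and all 10 were among the 13052 genes with enough reads to be tested.

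NRF2, the product of Nfe2l2, is held in the cytoplasm by KEAP1, which hands it to a CUL3 ubiquitin ligase for degradation. When electrophiles or oxidants modify KEAP1, NRF2 accumulates, pairs with a small MAF protein and binds antioxidant response elements in the promoters and enhancers of its targets. In liver these targets make and recycle glutathione, reduce thioredoxin and quinones, degrade haem, supply NADPH and export conjugates.

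Bulk RNA sequencing was performed on livers of male C57BL/6J mice that lacked lipin 1, a phosphatidic acid phosphohydrolase, in adipocytes (Adn-Lpin1-/-) and of littermate controls (WT). The deletion was made in floxed Lpin1 mice by Cre recombinase under the adiponectin promoter, and the WT littermates carried the floxed allele without Cre, so that liver cells of both genotypes kept the gene and hepatic Lpin1 cannot check the genotype labels. From 8 weeks of age mice received a low-fat diet (LFD, 10% of kcal from fat) or a high-fat diet (HFD, 60%), for 16 weeks by the sample labels and for 5 weeks by the study's methods, and all were fasted for 4 hours before death. There were 5 single-mouse libraries in each of the 4 groups (WT LFD, Adn-Lpin1-/- LFD, WT HFD and Adn-Lpin1-/- HFD) and 1 library of pooled RNA per group, which was kept out of the tests.

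The depth of the single-mouse libraries lay between 36260187 and 81072794 counts. The median was lowest in WT LFD (40777580) and highest in Adn-Lpin1-/- HFD (62306028). Levels are given as CPM, a gene's counts scaled to a common library total, on library sizes scaled by edgeR's TMM method, mouse by mouse. The test was edgeR's quasi-likelihood test, its p-values were adjusted by Benjamini-Hochberg over all tested genes, and genes with an adjusted p of no more than 0.05 are said to be called. Fold changes are on the log2 scale with their standard error (SE), and each group was 5 mice.

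Antioxidant response elements are the sequence feature that several of these genes are known to share, so the RefSeq promoter windows on GRCm38.p6, from 250 bases before to 50 bases after the start site, were searched for the core TGACNNNGC on both strands. Of the 10 genes, 7 had at least 1 window, 9 windows in all, and Gclc, Hmox1 and Gsr were not in the table. A match was present in 5 of the 9 windows, 1 each for Nfe2l2, Gclm, Txnrd1, Srxn1 and Sod1, and the windows of Nqo1 and Cat held none. Over all 32851 windows in the table the share with a match was 12.4%, and over 129 windows of the wider pathway genes described below it was 17.1%. Stretches of the windows of 4 genes with a match are shown, the 250 bases before the start for Gclm and Nfe2l2 and 29 bases around the match for Srxn1 and Txnrd1, first the called genes Srxn1 and Gclm and then the 2 of next largest fold change, with the match in capitals and each sequence 5′ to 3′ on the strand of the gene. Srxn1 is on chr2:152105542-152105570, plus strand, with the match at bases 29 to 37 after the start. Gclm is on chr3:122245307-122245556, plus strand, with the match at bases -134 to -126. Nfe2l2 is on chr2:75704664-75704913, minus strand, with the match at bases -240 to -232, in a window that also overlaps an exon of the noncoding gene E030042O20Rik. Txnrd1 is on chr10:82859104-82859132, plus strand, with the match at bases -92 to -84. In Srxn1, Gclm and Txnrd1 the motif reads on the strand opposite to the gene.
Srxn1: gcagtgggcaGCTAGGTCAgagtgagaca
Gclm: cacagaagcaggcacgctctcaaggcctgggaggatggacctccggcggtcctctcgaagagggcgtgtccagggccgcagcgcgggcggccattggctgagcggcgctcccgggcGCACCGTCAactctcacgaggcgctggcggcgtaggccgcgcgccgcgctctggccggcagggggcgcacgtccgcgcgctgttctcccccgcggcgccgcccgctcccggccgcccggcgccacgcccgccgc
Nfe2l2: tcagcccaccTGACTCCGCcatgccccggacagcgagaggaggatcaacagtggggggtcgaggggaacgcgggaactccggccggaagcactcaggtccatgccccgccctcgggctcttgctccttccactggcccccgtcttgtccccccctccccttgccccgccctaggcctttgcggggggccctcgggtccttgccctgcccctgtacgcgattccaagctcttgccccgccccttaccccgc
Txnrd1: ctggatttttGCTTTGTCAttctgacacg
A match describes the letters only and was not tested as a binding site.

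The 10 genes spanned a wide range of abundance. Per kilobase of exon, Sod1 stood highest in WT LFD, at a mean of 1543 CPM per kb, followed by Cat at 1411 CPM per kb, and the ranges of these neighbours overlapped. Gclc (48.1 CPM per kb) stood far below them and above Txnrd1 (26.3 CPM per kb) and Gclm (23.4 CPM per kb), which overlapped each other. Gsr (17.7 CPM per kb) and Nfe2l2 (17.3 CPM per kb) came next with overlapping ranges, then Srxn1 (8.47 CPM per kb) and Hmox1 (5.14 CPM per kb), which also overlapped, and Nqo1 was lowest at 1.92 CPM per kb. Nqo1 therefore rested on 81 to 445 counts per mouse, where Cat had between 128647 and 300277. Each sample is a piece of whole liver, in which fewer cells of a type and less RNA per cell cannot be told apart.

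**Figure D1:**
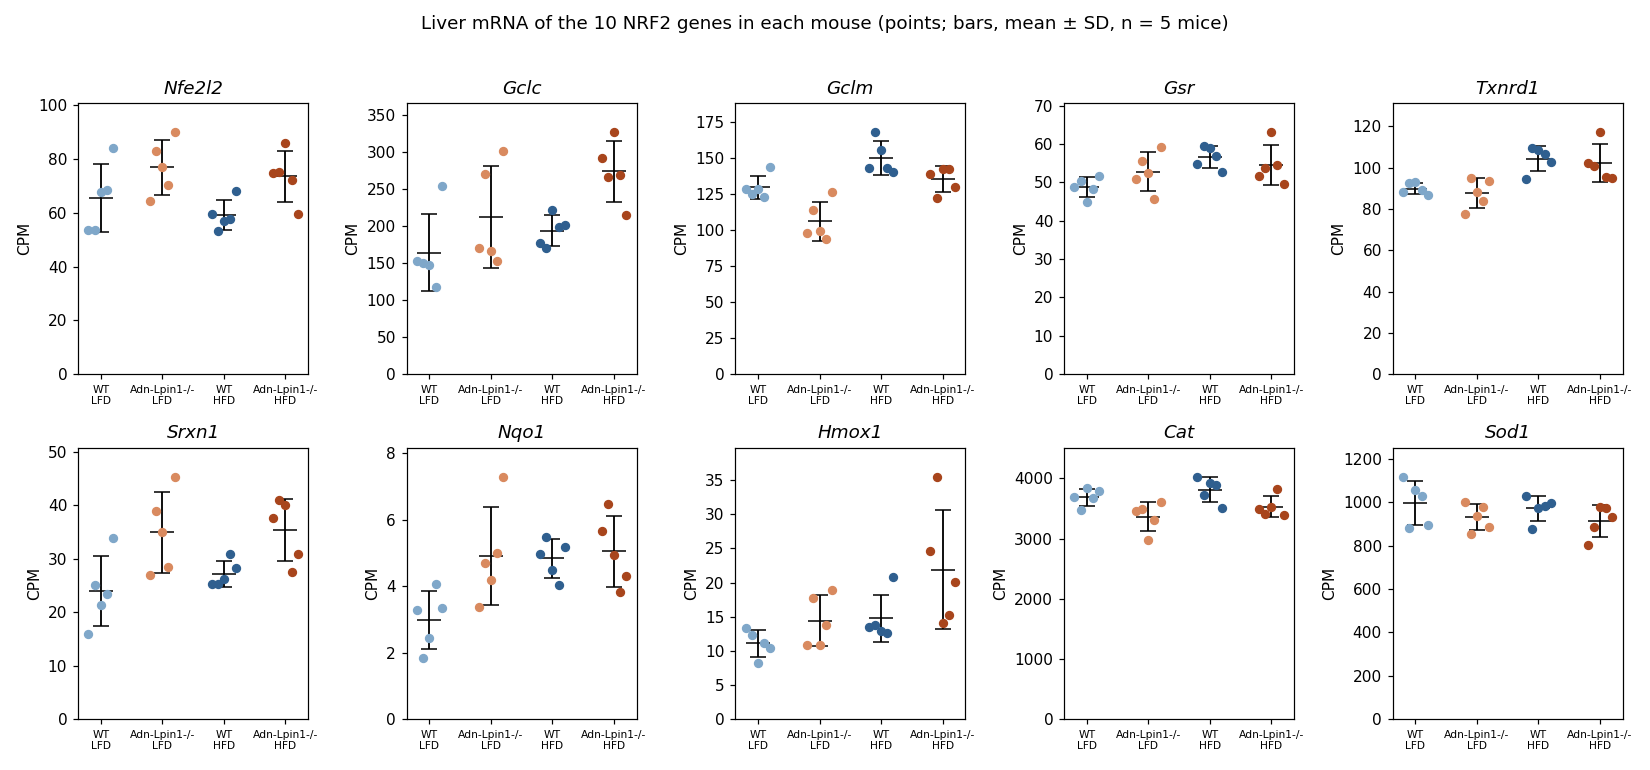
CPM of each of the 10 genes (y axes start at 0) in every mouse, by group, with the mean ± SD of 5 mice as bars. Nqo1 was lowest in WT LFD, between 1.82 and 4.06 CPM, Gclm was lowest in Adn-Lpin1-/- LFD, and the groups overlapped in most panels.

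Loss of adipocyte lipin 1 on the LFD was accompanied by higher hepatic Nqo1 and Srxn1 and lower Gclm, and the other 7 genes were not called. The 3 called genes are set against 14.4% of all tested genes called in this comparison, 6.27% higher and 8.11% lower in Adn-Lpin1-/- mice. None of the 10 genes separated the genotypes on the LFD without overlap, whereas 10.1% of all tested genes did.

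On the HFD edgeR called 0 of the 10 genes between genotypes, in a comparison that called 18.6% of all genes, 9.87% higher and 8.78% lower. At an unadjusted p under 0.05 there were 4, Nfe2l2, Gclc, Srxn1 and Hmox1, all higher in Adn-Lpin1-/- mice. Over all 13052 tested genes 4330 had such a p, 2277 of them higher. DESeq2's Wald test called Gclc and Hmox1, beside 22.3% of all genes, and limma voom with quality weights called Nfe2l2 and Hmox1, beside 18.7%. None of the 10 separated the genotypes without overlap on the HFD, against 11.4% of all genes.

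The diet comparisons called few genes of any kind. In WT mice 1.1% of all genes were called, 0.429% higher and 0.674% lower on the HFD, and 0 of the 10 genes by edgeR. Nqo1, Gclm, Txnrd1 and Gsr had an unadjusted p under 0.05, all 4 higher on the HFD. Over all 13052 tested genes 2059 had such a p, 982 of them higher. DESeq2 called Nqo1, beside 3.06% of all genes, and limma voom with quality weights called all 4 of these genes, beside 5.13%. Txnrd1 and Gsr were the 2 genes that separated the diets without overlap in WT mice, against 3.73% of all genes. In Adn-Lpin1-/- mice 2.46% of all genes were called, 1.2% higher and 1.26% lower on the HFD, and of the 10 genes Gclm alone was called. No gene of the 10 was free of overlap between the diets there, against 4.06% of all genes.

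In edgeR's test of whether the genotype difference was unequal between the diets, the share of all genes called was 0%, with 938 genes at an unadjusted p under 0.05. DESeq2 called 30 of all genes, limma voom 0, and with the pools as sixth libraries edgeR called 4 and limma voom 190. Among the 10 genes edgeR called 0, as did DESeq2 and limma voom, also with the pools, and Nqo1 alone had an unadjusted p under 0.05. The genotype comparisons and the diet comparisons share groups of mice and are given side by side, not as separate evidence.

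**Figure D2:**
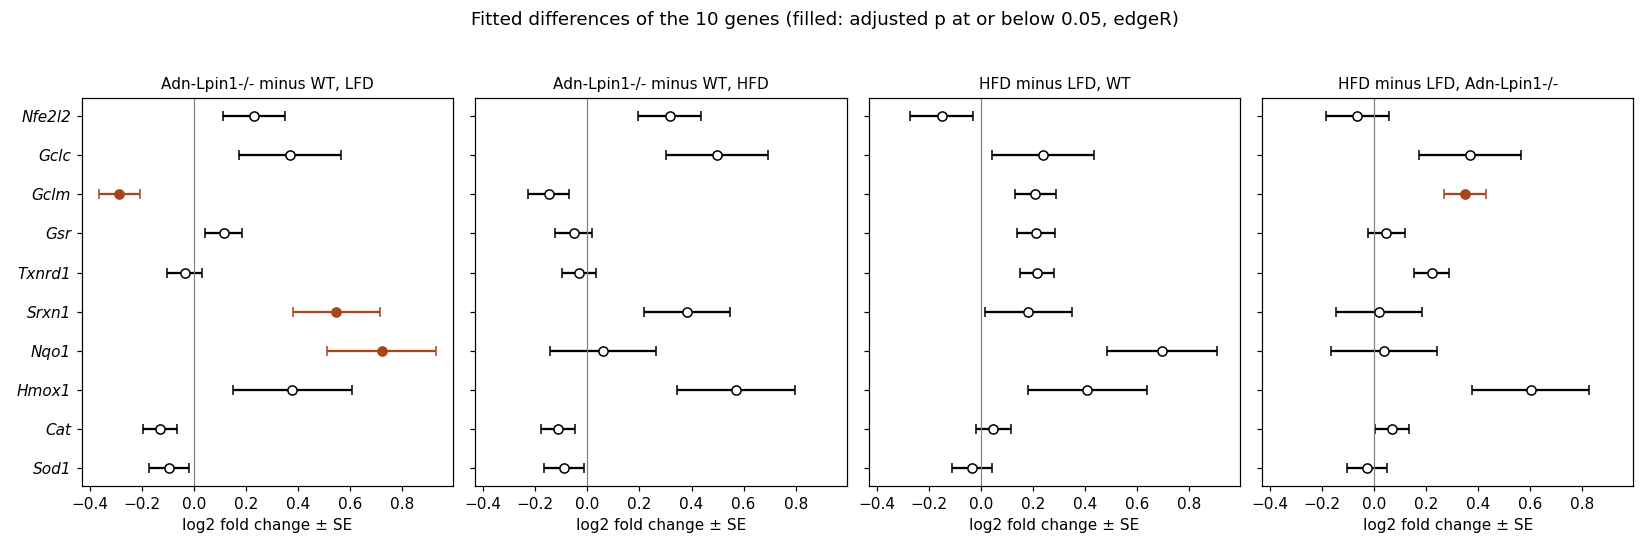
Fitted log2 fold change (x axis) with its SE for each of the 10 genes in the 4 comparisons, filled for called genes. The filled points are Nqo1, Srxn1 and Gclm between genotypes on the LFD and Gclm between diets in Adn-Lpin1-/- mice.

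Glutamate-cysteine ligase, the rate-limiting enzyme of glutathione synthesis, is a dimer of a catalytic subunit (Gclc, ENSMUSG00000032350, chr9:77754535-77794485) and a modifier subunit (Gclm, ENSMUSG00000028124, chr3:122245557-122269984), both known NRF2 targets. The differences of the 2 subunits between genotypes were of opposite sign. Gclc stood at 153, 151, 148, 117 and 254 CPM in the 5 WT LFD mice. It stood at 170, 271, 166, 153 and 302 CPM in the Adn-Lpin1-/- LFD mice. The highest WT mouse was above 3 of the 5 knockout mice, and 2 knockout mice were above every WT mouse. The fitted difference was 0.37 ± 0.20 (SE, edgeR adjusted p = 0.221). On the HFD, Gclc was at 177, 171, 222, 199 and 202 CPM in WT and at 292, 267, 328, 269 and 215 CPM in Adn-Lpin1-/- mice. Of the 5 knockout mice, 4 were above every WT mouse, a 1.41-fold difference that was not called (0.50 ± 0.20, SE, edgeR adjusted p = 0.0805).

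Gclm went the other way between genotypes. It was at 128, 125, 129, 123 and 143 CPM in WT LFD and at 97.9, 114, 99.4, 93.4 and 126 CPM in Adn-Lpin1-/- LFD. Of the knockout mice 4 were below every WT mouse, and mouse 5 of each genotype was the highest of its group. Gclm fell by 0.29 ± 0.08 on the log2 scale (SE, edgeR adjusted p = 0.0200), to 0.820 times the WT level. With the trend of each library with GC content removed the difference was -0.17 (edgeR adjusted p = 0.112), and without Adn-Lpin1-/- LFD mouse 4 it was -0.24 (edgeR adjusted p = 0.0518). The call was also lost in a fit of only the 2 groups (edgeR adjusted p = 0.0539) and, at the threshold itself, with no limit on low counts (-0.28, edgeR adjusted p = 0.05001). On the HFD, Gclm was at 143, 168, 155, 143 and 140 CPM in WT and at 139, 122, 142, 143 and 130 CPM in Adn-Lpin1-/- mice. The groups overlapped, and the difference of -0.15 ± 0.08 (SE, edgeR adjusted p = 0.198) was not called.

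Between diets Gclm rose by 0.35 ± 0.08 in Adn-Lpin1-/- mice (SE, edgeR adjusted p = 0.0239), with 4 of 5 HFD mice above every LFD mouse. In WT mice the value was 0.21 ± 0.08 (SE, edgeR adjusted p = 0.198). The call in Adn-Lpin1-/- mice was lost without LFD mouse 1, 3 or 4 or without HFD mouse 1 or 3, at edgeR adjusted p values between 0.0502 and 0.0732, and in a fit of only the 2 groups (edgeR adjusted p = 0.0939). In order of the group means, Gclm ran from 106 ± 13.5 CPM (SD) in Adn-Lpin1-/- LFD through 129 ± 8.08 in WT LFD and 135 ± 8.86 in Adn-Lpin1-/- HFD to 150 ± 11.7 in WT HFD, and each neighbour in this order overlapped the next. Gclm overlaps the minus-strand gene Gm17494, which averaged 1.82 CPM, and the pseudogene Gm6061, which was at 0, and the strand setting of the counting is not given in the sources used here.

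The ratio of the 2 subunits per kilobase was computed for each mouse, a quantity chosen after the values of both genes were seen. The ratio was 1.93, 1.95, 1.86, 1.55 and 2.87 in WT LFD and 2.82, 3.85, 2.70, 2.66 and 3.89 in Adn-Lpin1-/- LFD. The upper WT mouse overlapped the lower knockout mice, and the means were 2.03 ± 0.495 and 3.18 ± 0.629 (SD, n = 5, a log2 difference of 0.66, exact two-sided permutation p = 0.0317). On the HFD the ratio was 2.01, 1.65, 2.32, 2.25 and 2.34 in WT and 3.40, 3.54, 3.74, 3.06 and 2.68 in Adn-Lpin1-/- mice. Here every knockout mouse was above every WT mouse, with means of 2.11 ± 0.292 and 3.28 ± 0.420 (SD, n = 5, a log2 difference of 0.64, exact two-sided permutation p = 0.00794, the smallest that 5 against 5 allows). Between diets the log2 difference was 0.07 in WT mice, with an exact permutation p of 0.635. In Adn-Lpin1-/- mice it was 0.06, with an exact permutation p of 0.746. The genotype difference held on both diets with each mouse left out in turn, between 0.57 and 0.79 on the LFD (exact permutation p at most 0.0476) and between 0.55 and 0.71 on the HFD (exact permutation p at most 0.0159), and was 0.55 and 0.54 with the GC trend removed. These p values carry no correction for the choice of the ratio.

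**Figure D3:**
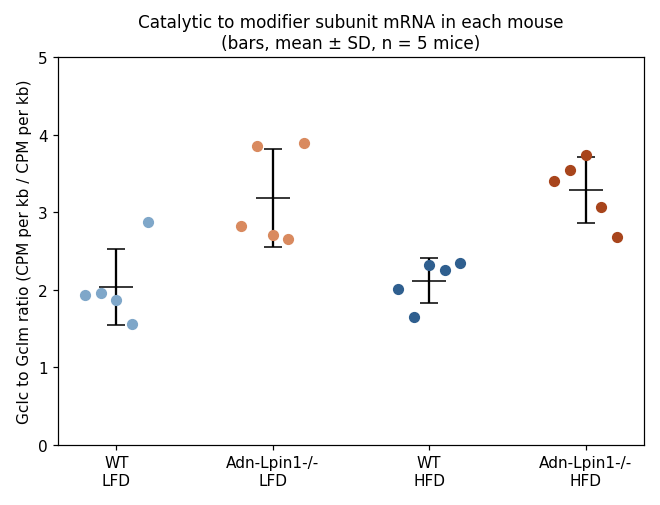
Ratio of Gclc to Gclm mRNA, each as CPM per kb of exon (y axis from 0), in every mouse with the mean ± SD of 5 mice. The 5 Adn-Lpin1-/- HFD mice lie between 2.68 and 3.74, above the 5 WT HFD mice between 1.65 and 2.34, and on the LFD 1 WT mouse at 2.87 lies within the knockout range.

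The regulator itself, Nfe2l2 (ENSMUSG00000015839, chr2:75675513-75704641, minus strand), is controlled mainly through the stability of its protein, which RNA sequencing does not read. Its mRNA was at 53.7, 53.7, 67.5, 68.5 and 84.2 CPM in WT LFD and at 64.2, 82.9, 77.1, 70.2 and 90.1 CPM in Adn-Lpin1-/- LFD. The genotypes overlapped widely on this diet (0.23 ± 0.12, SE, edgeR adjusted p = 0.214). On the HFD it was at 59.6, 53.2, 56.8, 57.5 and 68.2 CPM in WT and at 74.8, 75.3, 85.8, 72.2 and 59.6 CPM in Adn-Lpin1-/- mice. All but 1 of the knockout mice were above every WT mouse, a 1.25-fold difference that was not called (0.32 ± 0.12, SE, edgeR adjusted p = 0.0704). Over the 31 alternative fits the adjusted p of this difference ran from 0.00146 to 0.170 and passed in 5. Diet gave -0.15 ± 0.12 in WT (SE, edgeR adjusted p = 0.587) and -0.06 ± 0.12 in Adn-Lpin1-/- mice (SE, edgeR adjusted p = 0.841).

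Sulfiredoxin 1 (Srxn1, ENSMUSG00000032802, chr2:152105516-152111376), which restores over-oxidised peroxiredoxins, was higher in Adn-Lpin1-/- livers. On the LFD it was at 15.9, 25.0, 21.4, 23.3 and 33.8 CPM in WT and at 27.0, 38.9, 35.0, 28.4 and 45.3 CPM in Adn-Lpin1-/- mice. Of the 5 knockout mice 3 were above every WT mouse, and all 5 were above the WT median. Srxn1 rose 1.46-fold (0.55 ± 0.17, SE, edgeR adjusted p = 0.0329). The call was lost when any of 7 single mice was left out, at edgeR adjusted p values up to 0.102, and with the GC trend removed (0.50, edgeR adjusted p = 0.0570) and in a fit of only the 2 groups (edgeR adjusted p = 0.0766). On the HFD it was at 25.2, 25.2, 26.2, 30.8 and 28.2 CPM in WT and at 37.6, 40.9, 39.9, 27.6 and 30.9 CPM in Adn-Lpin1-/- mice. The difference was of like direction but not called (0.38 ± 0.17, SE, edgeR adjusted p = 0.111). Between diets Srxn1 differed by 0.18 ± 0.17 in WT (SE, edgeR adjusted p = 0.643) and by 0.018 ± 0.16 in Adn-Lpin1-/- mice (SE, edgeR adjusted p = 0.970).

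Thioredoxin reductase 1 (Txnrd1, ENSMUSG00000020250, chr10:82859206-82897724) and glutathione reductase (Gsr, ENSMUSG00000031584, chr8:33652523-33698163) use NADPH to return thioredoxin and glutathione to their reduced forms. Neither was called between genotypes, with differences of -0.04 ± 0.07 for Txnrd1 and 0.11 ± 0.07 for Gsr on the LFD (SE, edgeR adjusted p = 0.761 and 0.316). On the HFD the differences were -0.03 ± 0.07 and -0.05 ± 0.07 (SE, edgeR adjusted p = 0.774 and 0.648). Between diets the spread within groups was small in WT mice. Txnrd1 was at 88.1, 92.5, 93.0, 89.1 and 86.6 CPM in WT LFD and at 94.6, 110, 108, 107 and 103 CPM in WT HFD. Every HFD mouse was above every LFD mouse (0.22 ± 0.07, SE, edgeR adjusted p = 0.117). Gsr was at 48.8, 50.3, 44.9, 48.2 and 51.5 CPM in WT LFD and at 54.8, 59.5, 58.9, 56.8 and 52.6 CPM in WT HFD. It showed the same lack of overlap (0.21 ± 0.07, SE, edgeR adjusted p = 0.157). Neither difference passed the adjustment over all genes in edgeR's fit of the 20 single mice. Limma voom with quality weights called both (limma adjusted p = 0.0366 for Txnrd1 and 0.0359 for Gsr), beside 5.13% of all genes. In Adn-Lpin1-/- mice Txnrd1 went from 87.6 ± 7.26 to 102 ± 9.13 CPM (SD, 0.22 ± 0.07, SE, edgeR adjusted p = 0.0850) and Gsr from 52.8 ± 5.11 to 54.5 ± 5.22 CPM (SD, 0.05 ± 0.07, SE, edgeR adjusted p = 0.794).

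NAD(P)H quinone dehydrogenase 1 (Nqo1, ENSMUSG00000003849, chr8:107388225-107403206, minus strand), which reduces quinones and is a widely used readout of NRF2 activity, was the gene of the 10 with the lowest level and the largest difference. It was at 3.27, 1.82, 2.44, 4.06 and 3.33 CPM in WT LFD and at 3.37, 4.71, 4.19, 5.00 and 7.29 CPM in Adn-Lpin1-/- LFD. All but 1 of the knockout mice were above every WT mouse, and Nqo1 rose 1.65-fold (0.72 ± 0.21, SE, edgeR adjusted p = 0.0274). The call was lost without WT LFD mouse 2 or 3 or without Adn-Lpin1-/- LFD mouse 5, at edgeR adjusted p values between 0.0690 and 0.0940, in a fit of only the 2 groups (edgeR adjusted p = 0.0686), and with the replicate number as a block (0.71, edgeR adjusted p = 0.0510). On the HFD, WT mice were at 4.98, 5.48, 4.50, 4.02 and 5.19 CPM and Adn-Lpin1-/- mice at 5.66, 6.47, 4.94, 3.83 and 4.31 CPM. The 2 genotypes lay across each other (0.061 ± 0.20, SE, edgeR adjusted p = 0.861).

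WT LFD was thus the low group for Nqo1, at 2.99 ± 0.868 CPM (SD), below Adn-Lpin1-/- LFD at 4.91 ± 1.47, WT HFD at 4.83 ± 0.577 and Adn-Lpin1-/- HFD at 5.04 ± 1.05, which overlapped one another. Between diets the difference was 0.70 ± 0.21 in WT mice (SE, edgeR adjusted p = 0.113), with 4 of 5 HFD mice above every LFD mouse, and 0.04 ± 0.20 in Adn-Lpin1-/- mice (SE, edgeR adjusted p = 0.955). The genotype difference was 0.66 smaller on the HFD than on the LFD on the log2 scale (-0.66 ± 0.29, SE), which did not pass the adjustment (edgeR adjusted p = 0.666).

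Haem oxygenase 1 (Hmox1, ENSMUSG00000005413, chr8:75093591-75100596) opens the haem ring and in liver is made largely by macrophages that clear red cells, as well as by stressed hepatocytes. It was at 13.3, 12.4, 8.19, 11.2 and 10.4 CPM in WT LFD and at 10.9, 17.8, 10.9, 13.7 and 18.9 CPM in Adn-Lpin1-/- LFD. The 2 groups overlapped (0.38 ± 0.23, SE, edgeR adjusted p = 0.289). On the HFD it was at 13.6, 13.8, 12.9, 12.7 and 20.9 CPM in WT and at 24.7, 35.5, 14.01, 15.3 and 20.1 CPM in Adn-Lpin1-/- mice. All 5 knockout mice were above the WT median and 2 were above every WT mouse, a 1.49-fold difference that was not called (0.57 ± 0.23, SE, edgeR adjusted p = 0.0812). It passed in 7 of 31 alternative fits, among them the fit without WT HFD mouse 5 (0.72, edgeR adjusted p = 0.0413), and without Adn-Lpin1-/- HFD mouse 2 it was 0.33 and not called.

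Macrophage markers were also higher in Adn-Lpin1-/- livers on the HFD. The summed level of the 10 Kupffer cell and macrophage markers, Clec4f, Vsig4, Timd4, Marco, Adgre1, Cd68, Cd5l, Csf1r, Folr2 and C1qa, ranged from 178 to 226 CPM in WT HFD and from 230 to 517 CPM in Adn-Lpin1-/- HFD. The knockout mouse with the highest Hmox1 had the highest sum (517 CPM), and the mice at 24.7 and 20.1 CPM of Hmox1 had sums of 337 and 344 CPM. The remaining knockout mice had sums of 234 and 230 CPM. In WT HFD the order was not shared, since the mouse with the highest Hmox1 (20.9 CPM) had a sum of 209 CPM and the highest sum, 226 CPM, belonged to a mouse with 13.8 CPM of Hmox1. The 6 lipid-associated macrophage markers, Gpnmb, Trem2, Spp1, Cd9, Itgax and Mmp12, summed to 19.02 to 40.02 CPM in WT HFD and 29.7 to 64.6 CPM in Adn-Lpin1-/- HFD, and in the knockout mouse with the highest Hmox1 their sum was 45.4 CPM, below 49.5 CPM in the knockout mouse with the lowest. Of the 10 Kupffer cell and macrophage markers 6 were called higher and 0 lower on the HFD, beside 9.87% and 8.78% of all genes. Between genotypes on the LFD edgeR called 0 of 10, beside 14.4% of all genes. There limma voom called 0 and DESeq2 1, with 1 at an unadjusted p under 0.05, beside 3768 of all 13052 tested genes. On the LFD the sums ranged from 147 to 270 CPM in WT and from 181 to 359 CPM in Adn-Lpin1-/- mice. Their part in the Hmox1 values was not tested.

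Catalase (Cat, ENSMUSG00000027187, chr2:103453849-103485160, minus strand), the peroxisomal enzyme that splits hydrogen peroxide, and cytosolic superoxide dismutase (Sod1, ENSMUSG00000022982, chr16:90220742-90226322) were the most abundant of the 10. Cat ranged from 3466 to 3831 CPM in WT LFD, from 2977 to 3604 in Adn-Lpin1-/- LFD, from 3505 to 4029 in WT HFD and from 3385 to 3823 in Adn-Lpin1-/- HFD. The means were lower in knockout mice by small amounts, -0.13 ± 0.07 on the LFD (SE, edgeR adjusted p = 0.190) and -0.11 ± 0.07 on the HFD (SE, edgeR adjusted p = 0.240), and no knockout mouse was above its WT median in CPM on either diet. Sod1 ranged from 802 CPM, in an Adn-Lpin1-/- HFD mouse, to 1120 CPM, in a WT LFD mouse. Its genotype differences were -0.10 ± 0.08 on the LFD (SE, edgeR adjusted p = 0.437) and -0.09 ± 0.08 on the HFD (SE, edgeR adjusted p = 0.448). Between diets neither was called, and no difference was over 0.068 on the log2 scale.

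The 10 genes thus fell into those with higher means in knockout livers on both diets (Nfe2l2, Gclc, Srxn1, Nqo1 and Hmox1), those with lower means on both (Gclm, Txnrd1, Cat and Sod1), and Gsr, whose direction differed between the diets. Of these directions, that of Nqo1 on the HFD turned without Adn-Lpin1-/- HFD mouse 2 (-0.044) or WT HFD mouse 4 (-0.0078) and that of Txnrd1 on the LFD turned without Adn-Lpin1-/- LFD mouse 1 (0.00055). Their median log2 difference was 0.17 on the LFD and 0.015 on the HFD, beside medians over all tested genes of 0.0065 and 0.0023. For diet the medians of the 10 were 0.21 in WT and 0.057 in Adn-Lpin1-/- mice, beside 0.0028 and 0.0096 over all genes. All 10 passed the limit on low counts.

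Single mice carried part of the spread. Adn-Lpin1-/- LFD mouse 5 was the highest of its group for 8 of the 10 genes, all but Txnrd1 and Sod1. It also had the lowest summed level of the 8 hepatocyte markers (Alb, Apoa1, Ttr, Cps1, Serpina1e, Tat, Fgb and Trf) among all mice, 76564 CPM, and the highest macrophage sum of its group, 359 CPM. WT LFD mouse 5 was the highest of its group for Nfe2l2, Gclc, Gclm, Srxn1 and Gsr, with a hepatocyte sum of 114638 CPM, inside the range of the other WT LFD mice. Without this WT mouse, 5 of the 10 genes were called between genotypes on the LFD, beside 14.8% of all genes. This was the top of a range of 1 to 5 over the fits that left out 1 mouse. Gclc at 0.58 (edgeR adjusted p = 0.0324) and Nfe2l2 at 0.34 (edgeR adjusted p = 0.0487) were called in addition to Nqo1, Srxn1 and Gclm.

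Marker levels differed between genotypes across the samples. Hepatocyte sums ranged from 111234 to 115217 CPM in WT LFD, from 76564 to 104172 in Adn-Lpin1-/- LFD, from 99367 to 138444 in WT HFD and from 80794 to 107506 in Adn-Lpin1-/- HFD. Over all genes edgeR called 6.27% higher and 8.11% lower in knockout mice on the LFD, and 9.87% and 8.78% on the HFD. Of the 8 hepatocyte markers 5 were called lower in knockout mice on the HFD. On the LFD edgeR and DESeq2 called 0 and limma voom 2. An unadjusted p under 0.05 was reached by 4 of the 8, beside 3768 of all 13052 tested genes. Of the 10 stellate cell markers 6 were called higher on the LFD and 5 on the HFD. Of the 8 endothelial markers these counts were 4 and 5, and no marker of either list was called lower. Of the 6 lipid-associated macrophage markers 1 and 3 were called higher. Their part in the genotype differences of the antioxidant genes was not tested.

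Beyond the 10 genes, 113 further genes of the pathway were listed by function, of which 112 matched an identifier and 105 were tested. Between genotypes 19 of the 105 (18.1%) were called on the LFD, 12 higher and 7 lower, and 17 (16.2%) on the HFD, 9 higher and 8 lower, where the shares over all genes were 14.4% and 18.6%. Diet called 3 of 105 (2.86%) in WT and 5 (4.76%) in Adn-Lpin1-/- mice, beside 1.1% and 2.46% over all genes. The genotypes did not overlap for 12 of the 105 on the LFD and 13 on the HFD, beside 10.1% and 11.4% of all genes. The diets did not overlap for 9 in WT and 5 in Adn-Lpin1-/- mice, beside 3.73% and 4.06% of all genes. The median log2 difference of the 105 was 0.026 on the LFD and 0.039 on the HFD. EdgeR called 0 of the 105 for a genotype difference that depended on diet, with 7 at an unadjusted p under 0.05 and 0 by DESeq2 and by limma voom. In all, 33 of the genes were called in at least 1 comparison.

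**Figure D4:**
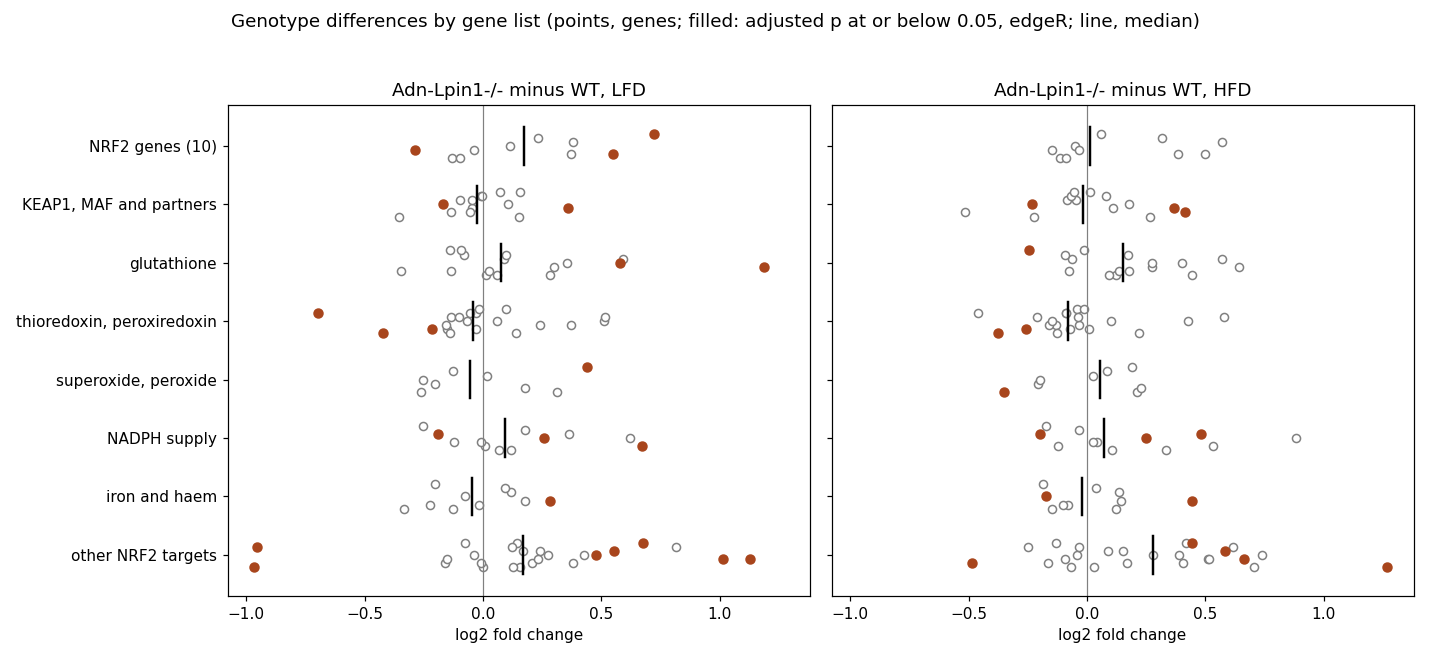
Log2 fold change between genotypes (x axes) on each diet for the 10 genes and the 7 further lists, 1 point per gene, filled where called, with the list median as a line. Called genes lie on both sides of 0 in most lists, with 12 higher and 7 lower among the 105 further genes on the LFD and 9 higher and 8 lower on the HFD.

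Of the 14 tested partners and regulators of NRF2, 2 (14.3%) were called between genotypes on the LFD, beside 14.4% of all genes. The HFD comparison called 3 (21.4%), beside 18.6%. Mafk, a small MAF partner, rose on both diets. Its difference was 0.36 on the LFD (edgeR adjusted p = 0.00536) and 0.37 on the HFD (edgeR adjusted p = 0.00386). Mafg, another small MAF gene, rose on the HFD (0.42, edgeR adjusted p = 0.0111). Cul3, the scaffold of the ligase that degrades NRF2, fell on both, with differences of -0.17 (edgeR adjusted p = 0.0287) and -0.23 (edgeR adjusted p = 0.00453). Keap1, singled out after its values were seen, differed by 0.070 ± 0.077 on the LFD (SE, edgeR adjusted p = 0.585) and by 0.013 ± 0.077 on the HFD (SE, edgeR adjusted p = 0.923) and was not called. Diet called 0 of these 14 by edgeR in either genotype, beside 1.1% of all genes in WT and 2.46% in Adn-Lpin1-/- mice. At an unadjusted p under 0.05 there were 1 in WT and 2 in Adn-Lpin1-/- mice, beside 2059 and 2097 of all 13052 tested genes. DESeq2 and limma voom called 0 of the 14.

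Of 16 tested glutathione genes, 2 (12.5%) were called between genotypes on the LFD and 1 (6.25%) on the HFD, beside 14.4% and 18.6% of all genes. Gpx3, the secreted glutathione peroxidase, and Ggt5, which cleaves glutathione conjugates, rose on the LFD. Gpx3 was at 4.40, 3.04, 2.20, 4.38 and 2.69 CPM in WT LFD and at 6.06, 11.6, 7.84, 6.73 and 5.85 CPM in Adn-Lpin1-/- LFD. The genotypes did not overlap, and the rise was 2.28-fold (1.19 ± 0.26, SE, edgeR adjusted p = 0.00565). Ggt5 rose from 2.26 ± 0.471 to 3.37 ± 0.185 CPM (SD, 0.58 ± 0.16, SE, edgeR adjusted p = 0.0200). On the HFD the called gene of this list was Glrx3, a monothiol glutaredoxin, with a difference of -0.24 (edgeR adjusted p = 0.0184). Between diets Gpx1, the main cytosolic glutathione peroxidase, rose in Adn-Lpin1-/- mice (0.41, edgeR adjusted p = 0.0414).

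Of the 20 thioredoxin and peroxiredoxin genes 3 (15%) were called between genotypes on the LFD and 2 (10%) on the HFD, all lower, beside 8.11% and 8.78% of all genes called lower and 14.4% and 18.6% called in either direction. Prdx4, the peroxiredoxin of the endoplasmic reticulum, fell on both diets (-0.42, edgeR adjusted p = 0.0231, and -0.38, edgeR adjusted p = 0.0340), as did Msrb1, a methionine sulfoxide reductase (-0.22, edgeR adjusted p = 0.0269, and -0.26, edgeR adjusted p = 0.00942). Sesn3, a sestrin, fell on the LFD from 3.75 ± 1.30 to 2.32 ± 0.539 CPM (SD, -0.70 ± 0.21, SE, edgeR adjusted p = 0.0288). Between diets Txnl1 fell in Adn-Lpin1-/- mice (-0.35, edgeR adjusted p = 0.0122). Of the 8 superoxide and peroxide genes, 1 (12.5%) was called between genotypes on each diet, beside 14.4% and 18.6% of all genes. Sod3, the extracellular superoxide dismutase, rose on the LFD (0.44, edgeR adjusted p = 0.0447), and Uox, urate oxidase, fell on the HFD (-0.35, edgeR adjusted p = 0.0427). Sod2, the mitochondrial superoxide dismutase, rose with the HFD in Adn-Lpin1-/- mice (0.25, edgeR adjusted p = 0.0358).

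The 12 NADPH genes supply the reducing power that Gsr, Txnrd1 and Nqo1 use. Between genotypes 3 of the 12 (25%) were called on each diet, beside 14.4% and 18.6% of all genes. Diet called 1 (8.33%) in each genotype, beside 1.1% of all genes in WT and 2.46% in Adn-Lpin1-/- mice. G6pdx, glucose-6-phosphate dehydrogenase at the entry of the pentose phosphate pathway, fell with the HFD in both genotypes. It was at 6.38, 16.5, 6.05, 13.8 and 12.2 CPM in WT LFD and at 4.38, 3.33, 3.87, 4.81 and 3.90 CPM in WT HFD. It was at 10.4, 11.3, 20.5, 8.56 and 6.79 CPM in Adn-Lpin1-/- LFD and at 5.23, 6.40, 4.96, 4.35 and 4.62 CPM in Adn-Lpin1-/- HFD. Every HFD mouse was below every LFD mouse of its genotype, with differences of -1.44 ± 0.28 in WT (SE, edgeR adjusted p = 0.0157) and -1.17 ± 0.27 in Adn-Lpin1-/- mice (SE, edgeR adjusted p = 0.0279). G6pdx overlaps Ikbkg on the opposite strand, which averaged 48.7 CPM. Pgd, the next NADPH-forming enzyme of that pathway, rose between genotypes on the LFD from 46.9 ± 11.1 to 74.8 ± 14.8 CPM (SD, 0.67 ± 0.20, SE, edgeR adjusted p = 0.0274), and Taldo1, transaldolase, rose on both diets (0.26, edgeR adjusted p = 0.0355, and 0.25, edgeR adjusted p = 0.0355). Tkt, transketolase, rose on the HFD (0.48, edgeR adjusted p = 0.0429), and Mthfd1, a folate enzyme, fell on both (-0.19, edgeR adjusted p = 0.0335, and -0.20, edgeR adjusted p = 0.0243).

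Of 10 iron and haem genes, 1 (10%) was called between genotypes on the LFD and 2 (20%) on the HFD, beside 14.4% and 18.6% of all genes. Blvrb, a biliverdin reductase that acts after haem oxygenase, rose on both diets (0.28, edgeR adjusted p = 0.0404, and 0.45, edgeR adjusted p = 0.00275). Fech, which inserts iron to form haem, fell on the HFD (-0.17, edgeR adjusted p = 0.0353).

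Of the 25 other tested NRF2 targets, 7 (28%) were called between genotypes on the LFD and 5 (20%) on the HFD, beside 14.4% and 18.6% of all genes. Ephx1, microsomal epoxide hydrolase, was at 182, 120, 164, 127 and 186 CPM in WT LFD and at 256, 375, 214, 236 and 491 CPM in Adn-Lpin1-/- LFD. On the HFD it was at 230, 258, 277, 241 and 305 CPM in WT and at 382, 414, 527, 378 and 375 CPM in Adn-Lpin1-/- mice. The genotypes were apart without overlap on both diets, with rises of 2.02-fold (1.01 ± 0.19, SE, edgeR adjusted p = 0.00163) and 1.58-fold (0.66 ± 0.19, SE, edgeR adjusted p = 0.0202). Ephx1 overlaps the pseudogene Gm36961 on the same strand. Aox1, aldehyde oxidase, rose between genotypes on the LFD from 44.3 ± 8.08 to 70.7 ± 21.4 CPM (SD, 0.67 ± 0.16, SE, edgeR adjusted p = 0.00819) and between diets in WT mice to 76.1 ± 6.09 CPM (SD, 0.78 ± 0.16, SE, edgeR adjusted p = 0.0200). Abcc3, an exporter of conjugates at the sinusoidal membrane, rose on the LFD from 123 ± 58.7 to 269 ± 102 CPM (SD, 1.13 ± 0.30, SE, edgeR adjusted p = 0.0164).

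Abcc1 and Abcc5, exporters of organic anions, were called between genotypes on the HFD. Abcc1 was at 1.06, 0.746, 0.726, 1.15 and 1.15 CPM in WT HFD and at 2.59, 3.58, 1.57, 1.61 and 2.31 CPM in Adn-Lpin1-/- HFD. The genotypes did not overlap, and the rise was 2.41-fold (1.27 ± 0.26, SE, edgeR adjusted p = 0.00319), at 41 to 240 counts per mouse. Abcc5 rose from 5.92 ± 0.452 to 8.87 ± 0.423 CPM (SD, 0.58 ± 0.09, SE, edgeR adjusted p = 0.000242), also with no overlap. On the LFD the 2 genes differed by -0.00054 ± 0.27 and 0.24 ± 0.09 (SE, edgeR adjusted p = 0.999 and 0.0745).

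Other targets of this list fell in knockout livers on the LFD. Adh7, an alcohol and retinol dehydrogenase, went from 43.3 ± 8.18 to 22.3 ± 3.98 CPM with no overlap (SD, -0.96 ± 0.19, SE, edgeR adjusted p = 0.00278), and it overlaps the antisense gene 0610031O16Rik, which averaged 32.9 CPM. Osgin1, a growth inhibitor induced by oxidative stress, went from 153 ± 54.4 to 78.1 ± 32.2 CPM (SD, -0.97 ± 0.31, SE, edgeR adjusted p = 0.0399). On the HFD the differences of these 2 genes were -0.25 ± 0.19 and -0.07 ± 0.30 (SE, edgeR adjusted p = 0.380 and 0.899). The remaining called genes of the list were Ugdh and Aldh1a7 (higher on the LFD), Akr1b3 (higher between genotypes on the HFD and lower with the HFD in WT mice), Pir (lower on the HFD) and Akr1c13 (higher with the HFD in Adn-Lpin1-/- mice). Over all 7 lists, 8 of 105 genes (7.62%) were called between genotypes on both diets, beside 7.78% of all tested genes (1015, of which 1013 in the same direction on both). The 8, each in the same direction on both, were Blvrb, Ephx1, Mafk and Taldo1 (higher) and Cul3, Msrb1, Mthfd1 and Prdx4 (lower).

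Mouse-to-mouse variation within groups was described by Pearson's r of log2 CPM after the mean of each group was taken off, over 20 mice that share library, depth and cell makeup with the genes compared, and without a test. Within the 10 genes, Nfe2l2 and Srxn1 (r = 0.74), Gclc and Gclm (r = 0.73) and Gclm and Gsr (r = 0.72) varied most alike, and Srxn1 and Sod1 most oppositely (r = -0.65). The subunits of glutamate-cysteine ligase thus varied alike over the 20 mice, while their genotype differences were of opposite sign. Gclc was called on neither diet in edgeR's fit of these mice. LFD mouse 5 of each genotype was the highest of its group for both subunits. In WT HFD the order was not shared, since mouse 2 was the highest for Gclm (168 CPM) and the lowest for Gclc (171 CPM). Nqo1 and Hmox1 gave r = 0.54, and Hmox1 with Gclm, Gsr and Txnrd1 gave r between -0.055 and 0.052.

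Over all tested genes, the 3 most like Hmox1 were Lgals3 (r = 0.91), Cd300c2 (r = 0.90) and Syk (r = 0.89), which are known from macrophages and other myeloid cells. The 3 most like Nqo1 were Acot9 (r = 0.79), Trem2 (r = 0.79) and Slc13a4 (r = 0.78). Gclm was most like Spop (r = 0.86), Ugdh (r = 0.82) and Adi1 (r = 0.82), and Gclc most like Fbxw9 (r = 0.86), Tex2 (r = 0.84) and Pola2 (r = 0.83). For Srxn1 these were Scamp5, Ppp2r5a and Sirt5 (r between 0.88 and 0.89), for Nfe2l2 Ntrk2, Mrpl49 and Selenop (r between 0.79 and 0.85), and for Txnrd1 Slc1a4, Rnf11 and Usp10 (r between 0.81 and 0.82). The corresponding genes were Prkaca, 1700066M21Rik and Ap3s1 for Gsr (r between 0.83 and 0.87), Cnn3, Bnip2 and Bcl10 for Cat (r between 0.81 and 0.85), and Mospd3, Stard10 and Rpl37 for Sod1 (r between 0.89 and 0.90). The median r with all tested genes was near 0 for each of the 10, between -0.015 and 0.0048. With the sign left out, the median r was between 0.19 (Cat) and 0.30 (Srxn1).

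The pooled library of each group repeats the RNA of its mice and was compared only as a check of the levels. In 38 of 40 pairs of gene and group, the pool lay inside the range of the 5 single mice. The exceptions were both Txnrd1, at 83.0 CPM in the WT LFD pool and 92.7 CPM in the Adn-Lpin1-/- HFD pool, each below its 5 mice.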

How the data were processed

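Livers of 20 single mice, 5 in each of 4 groups, and 4 pools of RNA were measured by RNA sequencing after poly-A selection. The authors used STAR 2.5.1a for alignment to GRCm38 and featureCounts 1.4.6-p5 for counting on genes of Ensembl release 76 (strand setting not given in the sources used here), and they deposited raw counts, CPM and RPKM per library. Every value here was computed from the deposited counts, and the deposited CPM and RPKM were not used. Groups were taken from the sample labels.

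Symbols were matched to 40254 of 41388 identifiers. Gene coordinates and exon lengths were those deposited with the counts, and GENCODE mouse release 21 (GRCm38) gave gene types, GC content and overlapping exons. The 355 rRNA genes (0.265% to 0.465% of each library's counts) were left out, and the 13052 genes over 1 CPM in at least 4 of 20 libraries were tested with edgeR 4.0.16 (R 4.3.3, TMM scaling, the 4 group means in 1 fit, quasi-likelihood test, Benjamini-Hochberg adjustment, threshold 0.05). Alternatives were DESeq2 1.42.0 (size factors, Wald test), voom of limma 3.58.1 with quality weights, fits that added the pools as sixth libraries, other limits on low counts, fits of a single pair of groups, a block for the replicate number, thinned counts, removal of GC trends (99.5% of genes had a GC value), and each mouse left out in turn. On counts simulated for the genotype comparison on the LFD (13052 genes), edgeR recovered 54 of 100 genes changed by a log2 fold of 0.5 and 85 of 100 changed by 1, with 9 false calls. The simulation changed far fewer genes than the 1877 called in the data, so its recovery need not hold there. Exact two-sided permutation tests over mice were enumerated in Python 3.11.15 with numpy 2.4.6. Figures used matplotlib 3.10.9, and tables were handled with pandas 2.3.3. Log2 CPM for correlations used a prior count of 2.

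The 10 genes, the wider lists and the marker lists were chosen with earlier results of these data known, so that no test over a list is given. Named genes were the 10, every wider gene called in at least 1 comparison, with values for the 12 of largest change, the 3 most like each of the 10, and at most 4 promoters. The ratio of Gclc to Gclm and its alternatives were chosen after the values were seen. Whether the mice of a group came from separate litters or cages is not given in the sources used here. The p-values set group differences against the spread between these mice.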

Additional observations from a re-analysis of the deposited data

Results flagged for a closer look

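Among 40 groups of 5 mice, 10 genes in 4 groups, 3 held a mouse whose distance to the nearest other mouse was over 0.71 of the whole range of its group, a limit that chance passes in about 1 group in 20. WT LFD mouse 5 was the highest of its group for Gclc, at 254 CPM (0.744 of the range), and for Gclm, at 143 CPM (0.714 of the range). WT HFD mouse 5 was the highest of its group for Hmox1, at 20.9 CPM (0.868 of the range). The genotype effect on Nqo1 differed between the diets by -0.66 on the log2 scale at an unadjusted p of 0.0358 in edgeR's test of the difference, and it did not pass the adjustment over all genes (edgeR adjusted p = 0.666). In 30 alternative fits this difference ran from -0.81 to -0.47 and was not called in any.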

How the results depend on the processing

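The effect of each processing choice was counted over 50 values, the log2 differences of the 10 genes in 5 comparisons. Over all of their alternatives 1419 values kept their direction and their side of the threshold, 43 passed it newly, 24 lost it and 54 turned direction, in 14 differences that were not called. The cause of these shifts was not tested. Of the 10 genes, the number called between genotypes on the LFD was 6 with limma voom and the pools as sixth libraries, 0 in a fit of only the 2 groups and 1 with GC trends removed. On the HFD it was 2 with DESeq2, 2 with limma voom, 6 with limma voom and the pools, 4 with edgeR and the pools, and 2 in a fit of only the 2 groups. Between diets it was 1 with DESeq2, 4 with limma voom, 4 with limma voom and the pools, and 3 with the pools in WT mice. In Adn-Lpin1-/- mice it was 4 with limma voom and the pools, 2 with the pools and 0 in a fit of only the 2 groups. The pools repeat RNA of the same mice, so that fits with them count it again. The share of all genes called moved too. Between genotypes on the LFD and the HFD it was 31.8% and 36.3% with limma voom and the pools, 23% and 28.8% with edgeR and the pools, 17.2% and 22.3% with DESeq2, 17% and 18.7% with limma voom, 12% and 15.2% in fits of only the 2 groups, 12.7% and 16.1% with GC trends removed, and 4.87% and 6.53% with no limit on low counts. Between diets in WT and Adn-Lpin1-/- mice it was 14.7% and 17.7%, 5.22% and 7.3%, 3.06% and 4.42%, 5.13% and 2.79%, 0.552% and 1.23%, 1.33% and 2.56%, and 0.376% and 0.787% in the same order, and in Adn-Lpin1-/- mice 1.54% with edgeR's default limit.

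Of the 105 further genes, the number called between genotypes was 46 on the LFD and 45 on the HFD with limma voom and the pools, 33 and 38 with edgeR and the pools, and 12 on the LFD with no limit on low counts. Between diets in WT mice it was 8 with DESeq2, 13 with limma voom, 27 with limma voom and the pools, and 12 with the pools. In Adn-Lpin1-/- mice it was 27 with limma voom and the pools, 11 with the pools, 2 with no limit on low counts, 2 with edgeR's default limit and 0 in a fit of only the 2 groups. With limma voom and the pools, 2 showed a genotype difference that depended on diet, beside 190 of all genes (1.45%).

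With the replicate block, that is the mouse number as a term, 2 of the 10 genes were called between genotypes on the LFD, 0 on the HFD, and 1 between diets in Adn-Lpin1-/- mice, and Nqo1 on the LFD lost its call (0.71, edgeR adjusted p = 0.0510). Of the 105 further genes, 14 and 14 were called between genotypes, 3 between diets in WT and 2 in Adn-Lpin1-/- mice, and of all genes 11.7%, 15.4%, 0.69% and 1.64%. The numbers share no stated litter or day, and the correlation of same-numbered mice of different groups ran from -0.415 to 0.281 (median -0.0112, 30 pairs), beside -0.399 to 0.430 (median 0.0058) in 120 other pairs.

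Directions that turned belonged to small differences. Between diets in Adn-Lpin1-/- mice Nqo1 was -0.017 with thinned counts. The dependence of the genotype difference on diet was, for Txnrd1, -0.10 with limma voom and the pools, -0.045 with the pools, -0.014 with no limit, -0.012 with edgeR's default limit and -0.017 with thinned counts, and for Sod1 -0.054, -0.023, -0.012 and -0.011 under the first 4 of these.

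When single mice were left out, the 10 genes gave 1 to 5 calls between genotypes on the LFD, 0 to 2 on the HFD and 0 to 1 between diets in Adn-Lpin1-/- mice, and the 105 further genes gave 7 to 23, 10 to 25, 0 to 9 (WT) and 1 to 10 (Adn-Lpin1-/-). The shares of all genes called ran from 9.27% to 15%, 11.4% to 21.1%, 0.422% to 2.22% and 0.944% to 2.95% in these comparisons. The lowest counts of the 105 genes came without Adn-Lpin1-/- LFD mouse 5 (7), Adn-Lpin1-/- HFD mouse 2 (10) and WT LFD mouse 2 (0). Between diets in Adn-Lpin1-/- mice the lowest count (1) was tied. It came without LFD mouse 2 or 3 or without HFD mouse 1, 3 or 5 of that genotype. Between genotypes Nqo1 ran from -0.044 to 0.13 on the HFD and Txnrd1 from -0.067 to 0.00055 on the LFD. Between diets in Adn-Lpin1-/- mice Nfe2l2 ran from -0.13 to 0.0026, Nqo1 from -0.077 to 0.22, Srxn1 from -0.066 to 0.13, Gsr from -0.011 to 0.093 and Sod1 from -0.060 to 0.016, and in WT mice Sod1 ran from -0.071 to 0.012. The dependence on diet ran from -0.030 to 0.15 for Nfe2l2, -0.091 to 0.29 for Gclc, -0.051 to 0.036 for Txnrd1, -0.051 to 0.34 for Hmox1, -0.022 to 0.045 for Cat and -0.048 to 0.051 for Sod1. The log2 ratio of Gclc to Gclm differed between diets by -0.015 to 0.21 in WT and -0.0026 to 0.13 in Adn-Lpin1-/- mice.

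The number of mice, 5 a group, limits the precision, and a gene without a call is not shown to be alike in the groups compared. Nqo1, at 81 to 445 counts per mouse, was the least deeply counted of the 10.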
